A study of Mus musculus with 38 samples.

Results

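The 10 genes described here encode proteins of the tight junction: the claudins Cldn1, Cldn2, Cldn3, Cldn4, Cldn7, Cldn8, Cldn15 and Cldn23, occludin (Ocln) and the scaffold protein ZO-1 (Tjp1). They were chosen by symbol, each symbol matched 1 Ensembl gene identifier, and the 10 stand among 55416 genes in each of 3 tables of read counts. The libraries are bulk RNA sequencing of mouse intestinal tract from a series on colorectal cancer and a diet with black rice. The Apc set held black rice (B), control diet (C) and WT libraries, with 3 libraries coded F and 3 coded M in each arm. In the AOM set there were 2 arms, black rice and control diet, with the same codes and 3 libraries per group, and the third set had 4 libraries of each diet and no codes. Labels gave the WT libraries no treatment, and gave no genotype, allele, strain, age or feeding time for any group, so Apc and AOM are used here only as set names, and F and M only as codes. FMT, part of the third table's name, is not spelled out in the labels.

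Tight junctions seal the gap between neighbouring epithelial cells near the lumen. Claudins are membrane proteins whose strands set which ions pass between cells: some members close the path, and others, such as claudin-2 and claudin-15, form pores for small cations and water. Occludin lies in the same strands, and ZO-1 ties them to the actin cytoskeleton. In the intestine claudins differ along the length of the gut and between crypt and surface, with claudin-15 known from the small intestine and claudin-8 from the distal colon.

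Upstream sequences are printed for the claudins whose levels the results below turn on, so that a reader can see the regions beside the values. RefSeq promoters of GRCm38.p6 were at hand for 8 of the 10 genes, Cldn8 and Cldn23 not among them. The 250 bases before the start are given 5′ to 3′ on the strand of the gene, and capitals mark matches to 8 searched motifs.
Cldn15, chr5:136967619-136967868, + strand: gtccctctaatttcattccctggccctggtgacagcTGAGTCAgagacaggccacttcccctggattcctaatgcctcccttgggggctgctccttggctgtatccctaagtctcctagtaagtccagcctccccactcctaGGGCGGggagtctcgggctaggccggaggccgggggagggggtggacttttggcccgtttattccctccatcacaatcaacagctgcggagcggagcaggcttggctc
Cldn1, chr16:26371840-26372089, - strand: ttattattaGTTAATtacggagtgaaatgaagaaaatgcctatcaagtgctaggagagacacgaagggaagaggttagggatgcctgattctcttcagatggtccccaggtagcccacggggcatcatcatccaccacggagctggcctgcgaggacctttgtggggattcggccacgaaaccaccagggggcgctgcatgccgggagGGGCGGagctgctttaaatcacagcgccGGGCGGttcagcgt
Cldn3, chr5:134985964-134986213, + strand: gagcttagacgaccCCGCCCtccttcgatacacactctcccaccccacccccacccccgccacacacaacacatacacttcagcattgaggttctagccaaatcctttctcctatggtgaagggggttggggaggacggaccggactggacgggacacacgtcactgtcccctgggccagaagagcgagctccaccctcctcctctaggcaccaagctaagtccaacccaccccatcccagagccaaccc
Cldn7, chr11:69964529-69964778, + strand: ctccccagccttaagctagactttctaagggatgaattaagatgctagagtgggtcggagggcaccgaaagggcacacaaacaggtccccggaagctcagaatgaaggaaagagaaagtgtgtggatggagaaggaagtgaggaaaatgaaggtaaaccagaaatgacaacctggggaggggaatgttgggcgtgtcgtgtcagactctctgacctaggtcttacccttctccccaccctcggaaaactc
Cldn2, chrX:139800558-139800807, + strand: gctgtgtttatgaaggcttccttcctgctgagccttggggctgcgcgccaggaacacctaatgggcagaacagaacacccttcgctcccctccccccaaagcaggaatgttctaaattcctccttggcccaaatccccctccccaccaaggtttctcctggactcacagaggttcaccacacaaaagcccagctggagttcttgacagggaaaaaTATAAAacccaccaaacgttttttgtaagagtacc
Matches were searched on both strands for CDX (TTTATNG), an HNF1 half-site (GTTAAT), HNF4 (CAAAGTNCA), TCF/LEF (CTTTGAT), grainyhead (AACNGGTT), AP-1 (TGANTCA), a GC box (GGGCGG) and a TATA box (TATAAA), and no match overlapped another in these windows. The Cldn15 window held an AP-1 match 214 bases and a GC box 108 bases before the start, and AP-1 letters stood in 6.75% of 32851 promoters of the same length. That window lies inside the GENCODE M21 gene, which begins at base 136966616, so the RefSeq start used is a later one. The Cldn1 window held an HNF1 half-site 241 bases before the start and GC boxes 42 and 14 bases before it, against shares of 6.43% and 32.7% of all promoters. Cldn2 had a TATA box 35 bases before its start, which 12.4% of promoters held, and Cldn3 a GC box 236 bases before it. The Cldn7 window matched none of the 8 motifs. No CDX, HNF4, TCF/LEF or grainyhead letters were found in these 5 windows, and the shares of all promoters with them were 9.81%, 1.19%, 3.21% and 1.79%. A match is only a match of letters.

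Total counts ran from 44.8 to 61.9 M per library in the Apc set, 37.9 to 55.1 M in 11 AOM libraries and 66.6 to 91.1 M in the third set. AOM black rice F replicate 3 was left out of every comparison because Alb, the serum albumin of hepatocytes, stood at 166020 CPM (counts scaled to library size) there, and at 77.8 or less in the other AOM libraries. Epithelial markers (8 genes, among them Krt8 and Vil1) were present in all libraries used, with summed levels of 7060 to 14800 CPM in the Apc set, 7029 to 17700 in the AOM set and 11930 to 17180 in the third set. Summed smooth muscle markers (10 genes) ran from 2700 to 6482, from 2550 to 13420 and from 2932 to 30250 in the same order. Summed transcripts of 6 Hox genes known from the distal colon varied widely, from 17.1 to 445 in the Apc set, from 7.50 to 353 in the AOM set and from 39.8 to 133 in the third set. Summed leukocyte markers (10 genes) ran from 620.2 to 2523 CPM in the Apc set, from 129 to 1281 CPM in the AOM set and from 207 to 477 CPM in the third set. Libraries of 1 group therefore differed in marker and Hox levels. In bulk tissue, fewer cells of a type and less RNA per cell cannot be told apart. Labels do not say that replicates are separate animals, so p-values measure the spread between these libraries.

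Levels are CPM scaled with TMM factors within a set. Divided by exon length, Cldn3 had the highest level of the 10 genes in every set, with medians of 223 CPM per kilobase over 18 Apc libraries, 453 over 11 AOM libraries and 346 over 8 libraries of the third set. Cldn7 came next with medians of 124, 182 and 206 CPM per kilobase, and Cldn15 followed with 70.1, 60.2 and 82.4. Cldn3 was above Cldn7, and Cldn7 above Cldn15, in every library. Cldn2 had a median of 56.7 CPM per kilobase in the Apc set, 45.5 in the AOM set and 24.8 in the third set, and its order against a neighbour was not fixed: Cldn15 was above Cldn2 in 12 of 18 Apc libraries and 10 of 11 AOM libraries. Ocln (24.3, 14.8 and 24.9 CPM per kilobase) and Tjp1 (18.9, 12.6 and 22.5) lay close together, Ocln being the higher in 16 of 18 Apc and 7 of 11 AOM libraries. Cldn23 had medians of 10.9, 11.5 and 21.6 CPM per kilobase.

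Cldn1 was the lowest of the 10 in every library, with medians of 0.600, 0.162 and 0.204 CPM per kilobase. Cldn4 and Cldn8 changed places between sets by their medians. Cldn4 had a median of 6.41 CPM per kilobase in the Apc set, 42.5 in the AOM set and 17.5 in the third set, and Cldn8 had 17.0, 4.79 and 15.4. The tables were normalized separately, so these differences between sets were not tested. Of 15 other claudins, Cldn12 was present at medians of 16.0, 10.6 and 13.9 CPM per kilobase. Cldn3 shared 40 of its 1259 exon bases (3.18%, GENCODE M21 on GRCm38) with an antisense gene, Wbscr25, and no strand option stood in the counting commands, so reads of that stretch could belong to either.

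**Figure D1:**
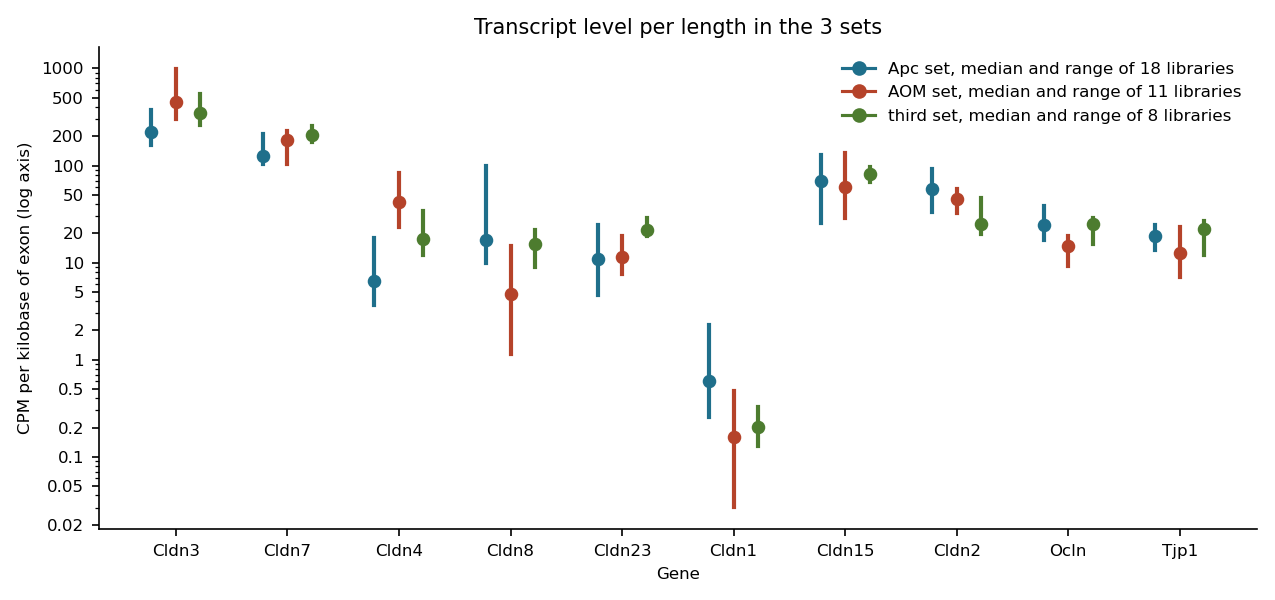
Transcript level per kilobase of exon (CPM per kilobase, log axis) for each gene, with points at the median and lines over the range of 18 Apc, 11 AOM and 8 third-set libraries. Cldn3 and Cldn7 stood highest and Cldn1 lowest in each set, and Cldn8 had the higher median of the pair in the Apc set and Cldn4 in the AOM set.

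The first question was whether the diet with black rice went with other levels of these genes than the control diet. None of the 10 genes passed the threshold, a Benjamini-Hochberg adjusted p under 0.05 in edgeR's quasi-likelihood test, in any of 16 comparisons, and so none is said to have changed. In the Apc set over both codes, 3 of 21624 genes were called (0.0139%), and at an unadjusted p under 0.05 stood 10.3% of all genes and 3 of the 10. For the AOM set edgeR called 0 of 21895 genes (0%) where DESeq2 called 13 and limma-voom 0, and the unadjusted shares were 3.06% of all genes and 0 of the 10. For the third set edgeR called 0 of 20831 genes (0%) where DESeq2 called 136 and limma-voom 0, with 7.94% of all genes and 3 of the 10 under an unadjusted p of 0.05. The median log2 difference of the 10 genes was -0.24 in the Apc set, -0.05 in the AOM set and -0.16 in the third set, and over all genes it was -0.01, -0.02 and 0.01. A p that misses the threshold does not show equal levels: among the members above an unadjusted p of 0.05, the 95% intervals reached from -1.28 to 0.86 in the Apc set, from -1.60 to 1.13 in the AOM set and from -0.97 to 0.66 in the third set.

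**Figure D2:**
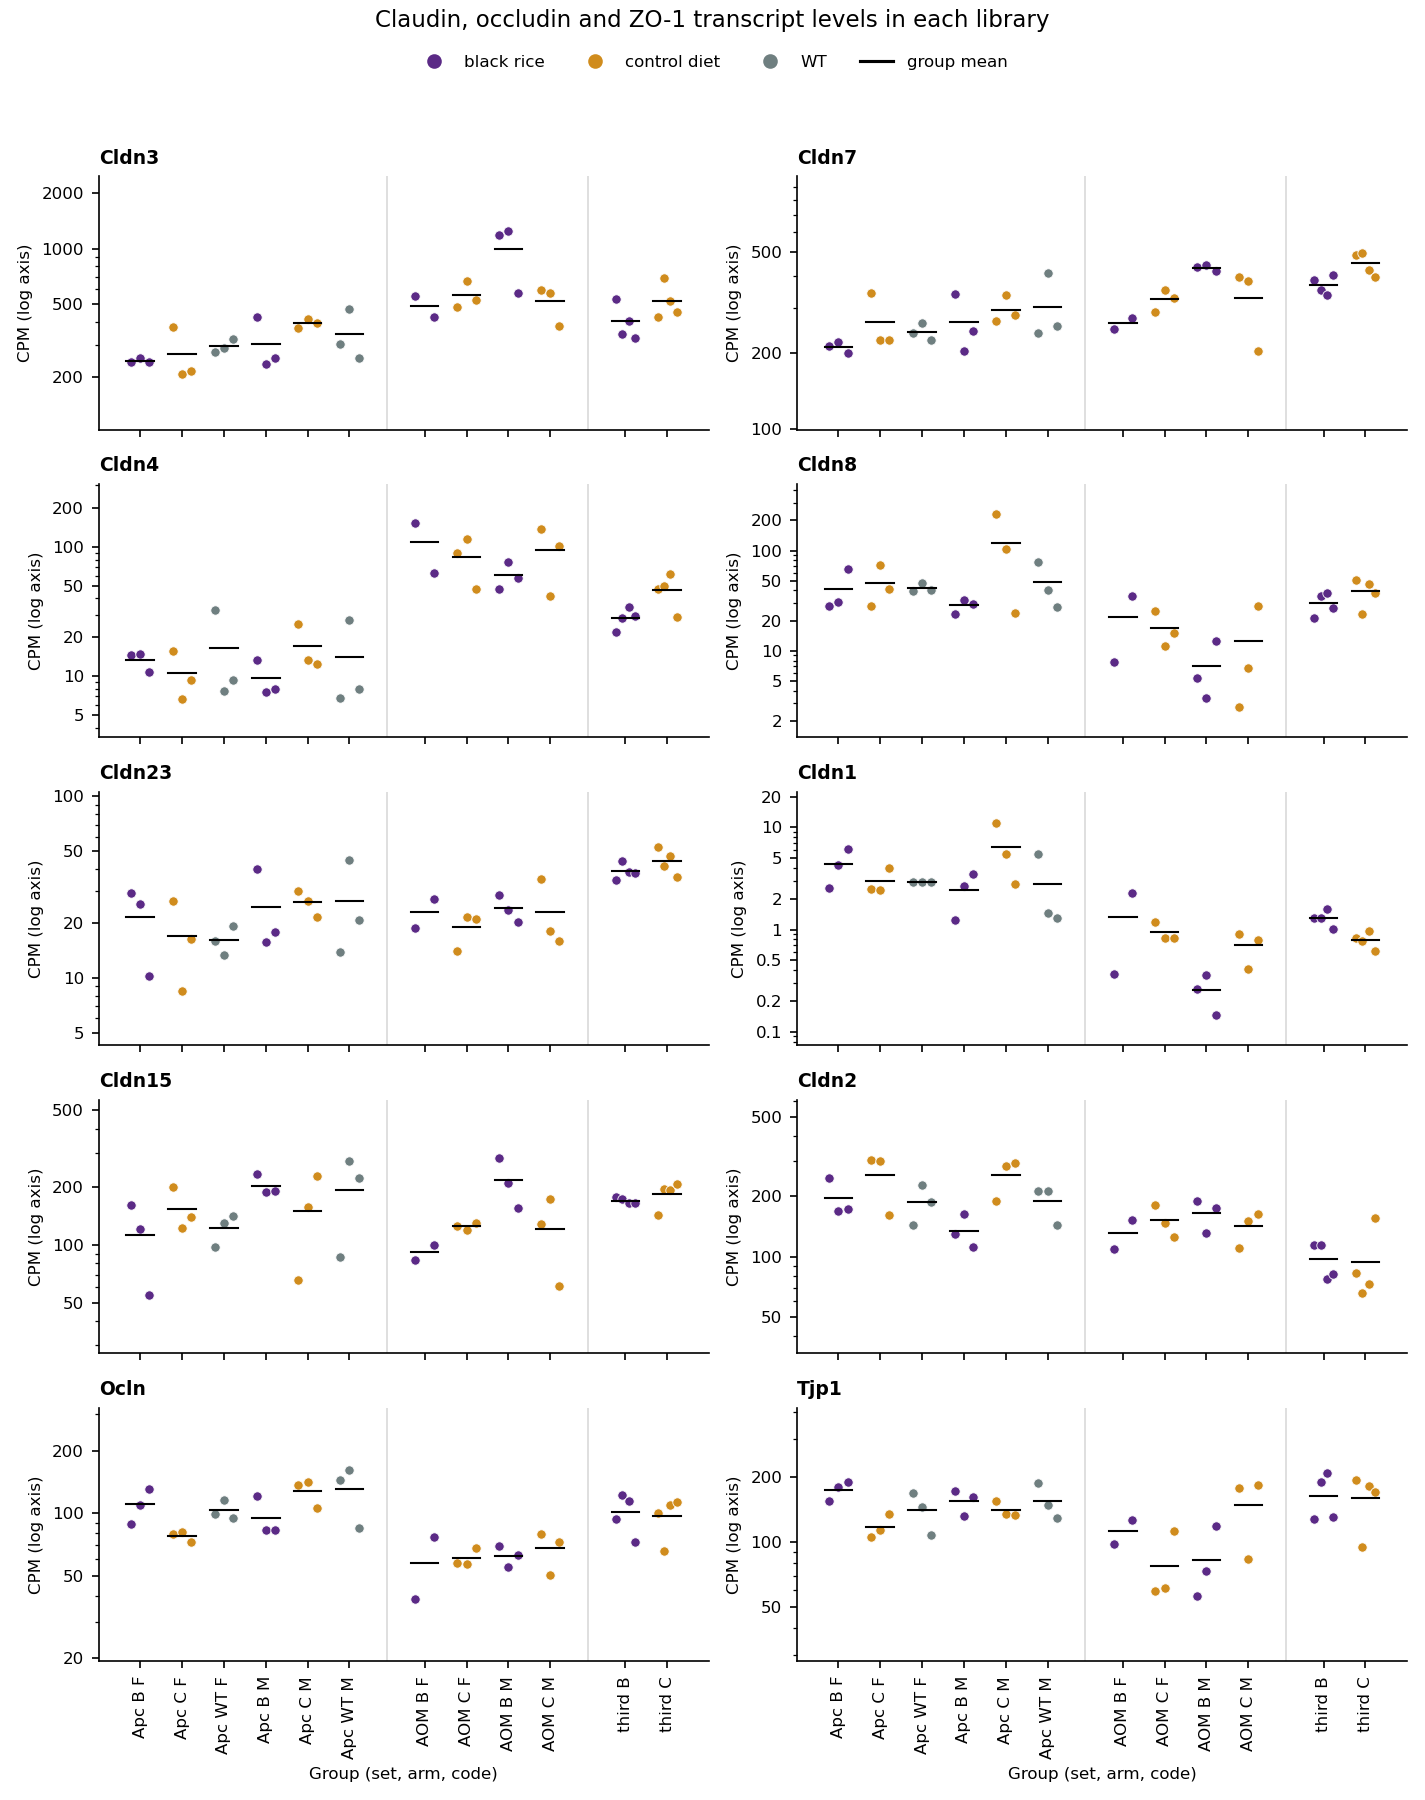
Level of each gene (CPM, log axis) by group, 1 point per library with the group mean as a line, without AOM black rice F replicate 3. Cldn2 in the Apc M groups ran from 112 to 163 CPM with black rice and from 189 to 292 CPM with the control diet, and Cldn8 in Apc control M ran from 23.7 to 231 CPM.

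The same comparisons were made within each code. Among Apc F libraries edgeR called 0 genes (0%), DESeq2 201 and limma-voom 0, and 10.2% of genes had an unadjusted p under 0.05. Among Apc M libraries edgeR called 7 genes (0.0324%), with 8.54% under an unadjusted p of 0.05. The difference of the diet effects between codes gave 0 calls in edgeR (0%), 132 in DESeq2 and 0 in limma-voom, with 8.89% unadjusted. In the AOM set, edgeR called 0 genes among F (0%, against 3 in DESeq2 and 0 in limma-voom, 3.27% unadjusted) and 0 among M (0%, against 255 and 0, 13.8% unadjusted). The difference between codes there gave 0 calls (0%), 175 in DESeq2 and 0 in limma-voom, with 14% unadjusted. Of the 10 genes, 3 had groups that did not overlap in Apc F, 1 in Apc M, 2 in AOM F, 2 in AOM M and 1 in the third set. Over all tested genes that share was 20.5%, 13%, 19.6%, 16.8% and 5.49% in the same order.

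**Figure D3:**
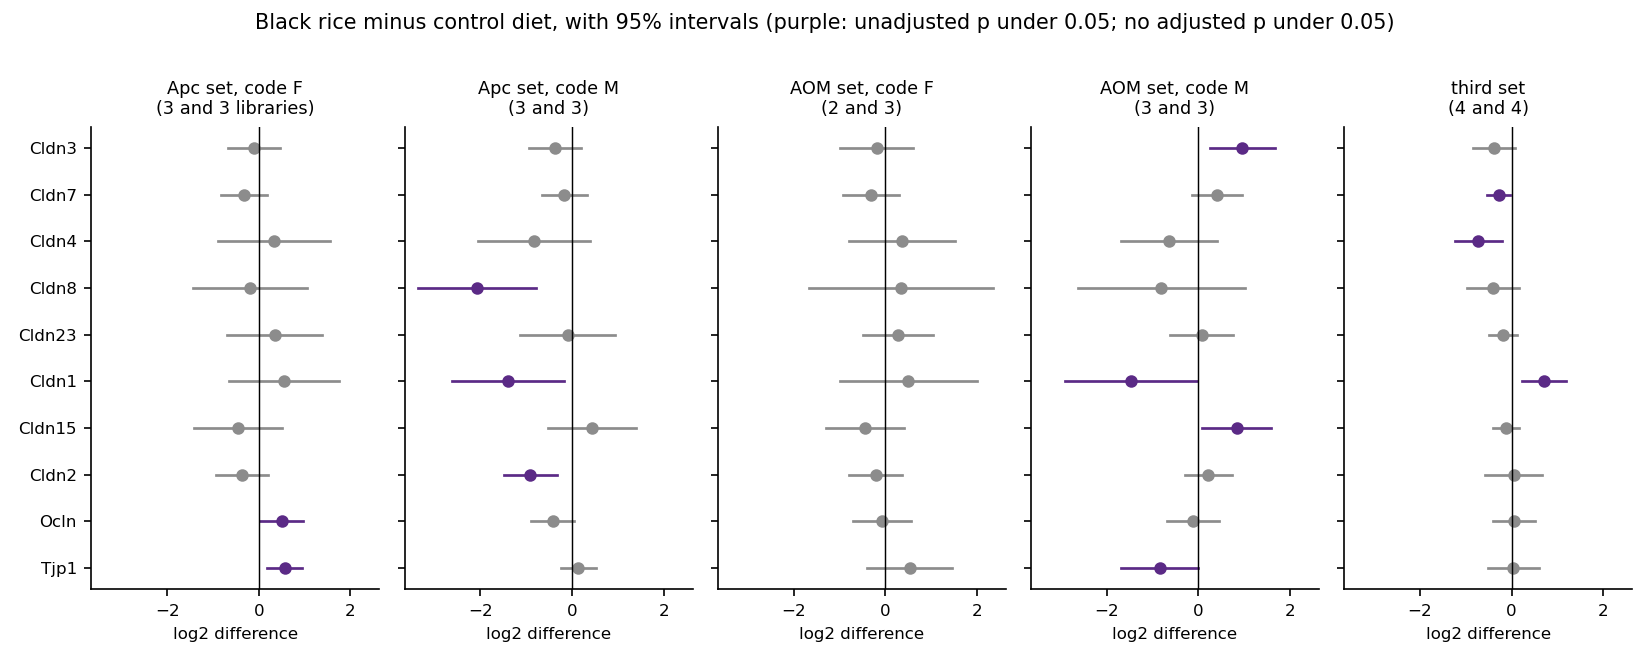
Log2 difference of black rice minus control diet for each gene in 5 comparisons, with points at the edgeR estimate and lines over its 95% interval; purple marks an unadjusted p under 0.05. The intervals of Cldn8 in Apc M (-3.37 to -0.79) and of Cldn2 in Apc M (-1.49 to -0.34) lay below 0, and no gene had an adjusted p under 0.05.

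Cldn2, the cation and water pore of leaky epithelia, had the smallest unadjusted p of the 10 genes in the Apc diet comparison over both codes. In F libraries it stood at 248, 169 and 173 CPM with black rice, at 303, 299.7 and 162 CPM with the control diet and at 144, 227 and 188 CPM in WT. In M libraries it stood at 129, 163 and 112 CPM with black rice, at 189, 282 and 292 CPM with the control diet and at 212, 212 and 143 CPM in WT. Every black rice library lay below the mean of its controls of the same code (6 of 6), and the M groups did not overlap while the F groups did. The log2 difference over both codes was -0.64 (SE 0.19, 95% interval -1.05 to -0.24, edgeR adjusted p = 0.306). Among M libraries alone it was -0.92 (SE 0.27, edgeR adjusted p = 0.374).

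Against WT, Cldn2 in the Apc control diet libraries had a log2 difference of 0.44 (SE 0.19, edgeR adjusted p = 0.999), and 4 of 6 control libraries lay above the WT mean of their code. That comparison, and the next, share control or black rice libraries with the diet comparison. EdgeR called 0 genes in control minus WT (0%, against 24 in DESeq2 and 0 in limma-voom), with 4.25% of genes and 1 of the 10 under an unadjusted p of 0.05. Black rice minus WT gave 3 called genes (0.0139%), 8.17% unadjusted and 0 of the 10. Cldn2 means over 6 libraries were 166 CPM ± 47.1 (SD) with black rice, 255 ± 62.3 with the control diet and 188 ± 36.3 in WT.

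Outside the Apc set the levels of Cldn2 overlapped between diets. In the AOM set it ran from 109 to 189 CPM in 5 black rice libraries and from 110.4 to 181 in 6 controls. Libraries of the third set stood at 114, 115, 77.0 and 81.7 CPM with black rice and at 82.9, 65.7, 72.8 and 155 CPM with the control diet. The highest of these, control replicate 4, also had the lowest smooth muscle sum of its set, 2932 CPM against 8957 or more in the other 7 libraries. The diet difference of Cldn2 in the Apc set minus that in the AOM set was -0.67 (SE 0.31, edgeR adjusted p = 0.666).

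Cldn15, the sodium pore known from the small intestine, did not separate the diets in the Apc set. It stood at 161, 121 and 54.5 CPM in black rice F, 200, 122 and 139.6 in control F, 233, 187 and 189 in black rice M and 65.7, 157 and 229 in control M. The lowest black rice and the lowest control library were those with the highest Hox sums of the set, 445 and 427 CPM. In AOM M libraries Cldn15 stood at 283, 210.2 and 155 CPM with black rice and at 128, 173 and 60.8 CPM with the control diet. These M groups overlapped, and their log2 difference was 0.84 (SE 0.34, edgeR adjusted p = 0.346). In AOM F libraries it was lower with black rice, at 83.8 and 100.1 CPM against 125, 119.7 and 129, without overlap. Epithelial sums in the same F libraries were 9060 to 9227 CPM and 10780 to 11110 CPM, also without overlap. The F difference minus the M difference was -1.28 (SE 0.51, edgeR adjusted p = 0.334), and -0.40 with a covariate for Hox transcripts and -0.76 with one for epithelial markers.

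Hox transcripts moved with the AOM M values. Their sums were 7.50, 14.0 and 94.2 CPM in black rice M and 39.5, 99.8 and 353 CPM in control M. With the mean of the Hox genes as a covariate, the Cldn15 difference in AOM M was 0.11 (edgeR adjusted p = 1), and without AOM control M replicate 3 it was 0.54 (edgeR adjusted p = 0.817). Over all alternatives its adjusted p ran from 0.154 to 1. The part of the Hox difference in the result was not tested. Cldn15 overlapped between diets in the third set, at 176, 174, 164 and 164 CPM with black rice and at 143, 196, 194 and 206 CPM with the control diet.

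Cldn3, a sealing claudin and the most abundant of the 10 per length, was highest in AOM black rice M. It stood there at 1187, 1245 and 570.2 CPM, and at 593, 576 and 377 CPM in control M. The 2 high libraries were those with the lowest Hox sums, and the groups overlapped at black rice replicate 3. The log2 difference was 0.96 (SE 0.32, 95% interval 0.24 to 1.67, edgeR adjusted p = 0.331), and 0.25 with the Hox covariate (edgeR adjusted p = 1; 0.107 to 1 over all alternatives). Among AOM F libraries it stood at 551 and 426 CPM with black rice and at 478, 670.2 and 524 with the control diet, and the F minus M difference of the diet effects was -1.15 (SE 0.48, edgeR adjusted p = 0.346), or -0.38 with the Hox covariate.

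In the Apc set, Cldn3 ran from 206 to 376 CPM in 9 F libraries and from 234 to 469 CPM in 9 M libraries. The code difference, F minus M over the 3 arms, was -0.36 (SE 0.15, edgeR adjusted p = 0.302), and -0.17 with the epithelium markers as a covariate. EdgeR called 16 genes between codes there (0.074%), with 15.1% of genes and 2 of the 10 under an unadjusted p of 0.05. The Cldn3 diet effect differed between sets by -0.66 for Apc minus AOM (SE 0.30, edgeR adjusted p = 0.666) and by 0.81 for AOM minus the third set (SE 0.33, edgeR adjusted p = 0.913). With the Hox covariate the first was -0.40, and with the epithelium covariate the second was 0.51. Between sets, edgeR called 0 genes for Apc minus AOM (0%), 0 for Apc minus the third set (0%) and 0 for AOM minus the third set (0%), against 11, 23 and 4 in DESeq2 and 0 in limma-voom. Unadjusted shares were 7.25%, 2.95% and 5.22% of all genes, and 2, 0 and 1 of the 10.

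Cldn7, a claudin of the lateral membrane that binds Epcam, ran from 199.9 to 413 CPM in the Apc set and from 204 to 444 CPM in the AOM set. Groups did not overlap in 3 comparisons, and the side differed. It was lower with black rice in Apc F (212, 220.2 and 199.9 against 343, 224 and 224 CPM) and in AOM F (248 and 275 against 290.4, 355 and 329 CPM), and higher in AOM M (435, 444 and 420.3 against 399, 383 and 204 CPM). Leukocyte sums were lower with black rice without overlap in Apc F (620.2 to 740.1 against 1130 to 2523 CPM) and in AOM F (392 to 426 against 500.2 to 1281 CPM). Smooth muscle sums in Apc F were higher with black rice without overlap (4084 to 6482 against 3210 to 3423 CPM). AOM control M replicate 3, at 204 CPM of Cldn7, had an epithelial sum of 7029 CPM and a Hox sum of 353 CPM. These were the lowest and the highest of the 11 AOM libraries used. Epithelial sums in AOM F were 9060 to 9227 CPM with black rice and 10780 to 11110 CPM with the control diet, also without overlap, and the part of these markers was not tested. Third-set values of Cldn7 were 386, 353, 339 and 406 CPM with black rice and at 487, 497, 426 and 398 CPM with the control diet, with overlap and a log2 difference of -0.28 (SE 0.11, edgeR adjusted p = 0.613).

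Cldn4, a sealing claudin also bound by a clostridial toxin, had in the third set 21.9, 28.3, 34.2 and 29.4 CPM with black rice and 47.4, 49.8, 61.9 and 28.6 CPM with the control diet. Control replicate 4 lay among the black rice libraries, and the other 3 controls lay above all of them. The log2 difference was -0.72 (SE 0.23, 95% interval -1.23 to -0.22, edgeR adjusted p = 0.545). Epithelial markers differed in the same libraries: their sums were 14690, 14060, 12700 and 11930 CPM with black rice and 17180, 16160, 15470 and 15110 CPM with the control diet, without overlap. Taken relative to those markers, the difference of Cldn4 was -0.42 and that of Cldn7 was -0.02 on the log2 scale. With the markers as a covariate, Cldn4 was -0.85, farther from 0 than without it, and Cldn7 was -0.16. Their part in the result was not tested. In the Apc set Cldn4 ran from 6.72 to 32.3 CPM, with the highest values in WT F replicate 1 (32.3), WT M replicate 2 (27.4) and control M replicate 1 (25.5), and in the AOM set from 42.2 to 154 CPM.

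Cldn8, a sealing claudin, varied most in the Apc set, from 23.4 to 231 CPM. In M libraries it stood at 23.4, 32.2 and 29.5 CPM with black rice, at 231, 105 and 23.7 CPM with the control diet and at 76.6, 40.6 and 27.1 CPM in WT. Black rice lay below 2 of 3 control libraries and overlapped the third. In F libraries it stood at 27.8, 31.0 and 64.9 CPM with black rice and at 28.0, 71.6 and 41.8 CPM with the control diet. The log2 difference among M was -2.08 (SE 0.61, 95% interval -3.37 to -0.79, edgeR adjusted p = 0.364). DESeq2 gave -2.06 with an adjusted p of 0.0425, the only call of any of the 10 genes by any alternative. Its adjusted p over all alternatives ran from 0.0425 to 0.758, and that of Cldn8 over both codes from 0.12 to 0.74.

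The Cldn8 value rested on control M replicate 1. Without that library the M difference was -1.15 (edgeR adjusted p = 0.758), and relative to the epithelial markers it was -1.37. Over both codes the difference was -1.14 (SE 0.42, edgeR adjusted p = 0.396), and -0.66 without the same library (edgeR adjusted p = 0.569). Replicate 1 had a Hox sum of 427 CPM and control M replicate 3, the control library lowest in Cldn8, had 18.3 CPM. With the Hox covariate the M difference was -1.75 (edgeR adjusted p = 0.0814), and with the epithelium covariate it was -2.0 (edgeR adjusted p = 0.271). The F minus M difference of the diet effect was 1.88 (SE 0.83, edgeR adjusted p = 0.534), and 0.97 without control M replicate 1.

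Cldn1, a barrier claudin best known from the skin, was scarce, from 1.24 to 11.1 CPM in the Apc set, 0.147 to 2.30 CPM in the AOM set and 0.619 to 1.60 CPM in the third set. In Apc M libraries it stood at 1.24, 2.65 and 3.46 CPM with black rice and at 11.1, 5.48 and 2.79 CPM with the control diet, and its log2 difference was -1.40 (SE 0.58, edgeR adjusted p = 0.515), or -0.73 without control M replicate 1. The F minus M difference was 1.95 (SE 0.81, edgeR adjusted p = 0.515). In AOM M libraries it stood at 0.262, 0.357 and 0.147 CPM with black rice and at 0.910, 0.414 and 0.782 CPM with the control diet, without overlap. That difference was -1.47 (SE 0.65, edgeR adjusted p = 0.360), and -0.86 with the Hox covariate.

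The order of Cldn1 in the third set was the other way round. It stood at 1.28, 1.31, 1.60 and 1.02 CPM with black rice and at 0.823, 0.781, 0.961 and 0.619 CPM with the control diet, the only one of the 10 genes whose groups did not overlap there. The log2 difference was 0.71 (SE 0.22, 95% interval 0.22 to 1.19, edgeR adjusted p = 0.532). Between AOM codes, F minus M, Cldn1 differed by 1.41 (SE 0.47, edgeR adjusted p = 0.571), a value of 0.49 without black rice F replicate 2, and Cldn15 by -0.59 (SE 0.26, edgeR adjusted p = 0.583), a value of -0.01 with the Hox covariate. EdgeR called 8 genes between AOM codes (0.0365%), and 8.44% of genes and 2 of the 10 had an unadjusted p under 0.05. Cldn23, a claudin for which less is known, had no unadjusted p under 0.05 in any comparison, and ran from 8.51 to 44.7 CPM in the Apc set, 14.1 to 34.9 in the AOM set and 34.5 to 52.9 in the third set.

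Occludin showed opposite sides in the Apc codes. It stood at 89.2, 110.0 and 131 CPM in black rice F and at 79.6, 81.6 and 72.5 CPM in control F, without overlap. In M libraries it stood at 121, 82.5 and 82.5 CPM with black rice and at 136, 142 and 106 CPM with the control diet, with overlap. The log2 difference was 0.50 among F (SE 0.22, edgeR adjusted p = 0.465), and the F minus M difference was 0.93 (SE 0.31, 95% interval 0.26 to 1.59, edgeR adjusted p = 0.438). Other markers separated the same Apc F groups: smooth muscle sums were 4084 to 6482 CPM with black rice and 3210 to 3423 CPM with the control diet, and leukocyte sums were 620.2 to 740.1 CPM and 1130 to 2523 CPM. With the smooth muscle markers as a covariate the F difference of Ocln was 0.41, and the part of the leukocyte difference was not tested. Over the 3 arms the code difference was -0.28 (SE 0.13, edgeR adjusted p = 0.320), with 72.5 to 131 CPM in F and 82.5 to 161 CPM in M libraries. Ocln in the AOM set ran from 38.7 to 76.6 CPM with black rice and from 50.6 to 79.6 CPM with the control diet, and in the third set from 72.7 to 123 and from 65.9 to 113.

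Tjp1 was higher with black rice in Apc F, at 155, 179 and 189.5 CPM against 106, 114 and 134 CPM with the control diet, without overlap. In Apc M it stood at 172, 132 and 161 CPM with black rice and at 156, 135 and 134 CPM with the control diet. The log2 difference was 0.56 among F (SE 0.18, 95% interval 0.18 to 0.95, edgeR adjusted p = 0.369) and 0.35 over both codes (SE 0.13, edgeR adjusted p = 0.396), with 5 of 6 black rice libraries above the control mean of their code. The Apc F libraries are those whose smooth muscle sums (4084 to 6482 against 3210 to 3423 CPM) and leukocyte sums (620.2 to 740.1 against 1130 to 2523 CPM) did not overlap between diets. With the smooth muscle covariate the F difference of Tjp1 was 0.57, and the part of the leukocyte difference was not tested. WT libraries ran from 108 to 188 CPM and overlapped both diets. In AOM M the order was reversed: Tjp1 stood at 56.1, 73.5 and 118 CPM with black rice and at 178, 83.7 and 184 CPM with the control diet. That difference was -0.85 (SE 0.38, edgeR adjusted p = 0.362), or -0.29 with the Hox covariate, and the F minus M difference in the AOM set was 1.38 (SE 0.56, edgeR adjusted p = 0.339), or 0.74 with the covariate. Tjp1 ran in the third set from 128 to 209 CPM with black rice and from 94.6 to 194 CPM with the control diet.

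Levels were next related to tissue markers across the libraries of each set, with permutations over all its libraries regardless of group. For each gene and set, its log2 CPM was related to the mean log2 CPM of the distal Hox, epithelial and smooth muscle markers. These 90 relations were chosen after values had been seen, and 14 of them had a permutation p for Pearson's r adjusted over the 90 under 0.05. Cldn15 was lower where Hox transcripts were higher in the Apc set (r = -0.758, permutation p = 0.00036, adjusted 0.0057; rho = -0.872, p = 1e-05, the smallest that 100000 permutations can give; n = 18). Without the 2 libraries farthest from the Hox median r was -0.768. It did so in the AOM set too (r = -0.888, permutation p = 0.00056, adjusted 0.0072; rho = -0.882, p = 0.00075; n = 11; r = -0.724 without 2 libraries). Cldn8 went the other way, with r = 0.644 in the Apc set (permutation p = 0.00369, adjusted 0.0271; rho = 0.73, p = 0.00095; r = 0.607 without 2 libraries) and r = 0.795 in the AOM set (permutation p = 0.00392, adjusted 0.0271; rho = 0.773, p = 0.00746; r = 0.792 without 2 libraries).

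After subtraction of group means, which removes diet, arm and code, the Hox relation of Cldn8 had r = 0.851 in the Apc set and 0.869 in the AOM set, and that of Cldn15 had r = -0.816 and -0.79. Cldn1 had r = 0.565 in the Apc set (permutation p = 0.0142, adjusted 0.072; rho = 0.595, p = 0.0107) and 0.712 in the AOM set (permutation p = 0.0144, adjusted 0.072; rho = 0.736, p = 0.0126), which did not pass the adjustment. In the AOM set Cldn3 (r = -0.902, permutation p = 0.00038, adjusted 0.0057; rho = -0.764, p = 0.00883; r = -0.816 without 2 libraries) and Cldn7 (r = -0.818, permutation p = 0.00177, adjusted 0.0153; rho = -0.864, p = 0.00105; r = -0.685 without 2) were also lower where Hox values were higher. With group means subtracted, Cldn1 had r = 0.686 in the Apc set and only 0.367 in the AOM set. In the AOM set Cldn3 then had -0.785 and Cldn7 -0.675. In the third set, where the mean log2 Hox level spanned only 0.11 to 0.98, 0 of 10 genes passed. Cldn8 had r = -0.495 there (exact permutation p = 0.217) and Cldn15 r = 0.056 (exact permutation p = 0.894). Both signs were opposite to those of the other sets. Cldn1 (r = 0.499), Cldn3 (-0.172) and Cldn7 (-0.255) had the signs given above, but not in every form. After subtraction of group means their third-set values were 0.056, 0.209 and 0.33. Without the 2 libraries farthest from the Hox median they were -0.356, -0.56 and 0.168.

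**Figure D4:**
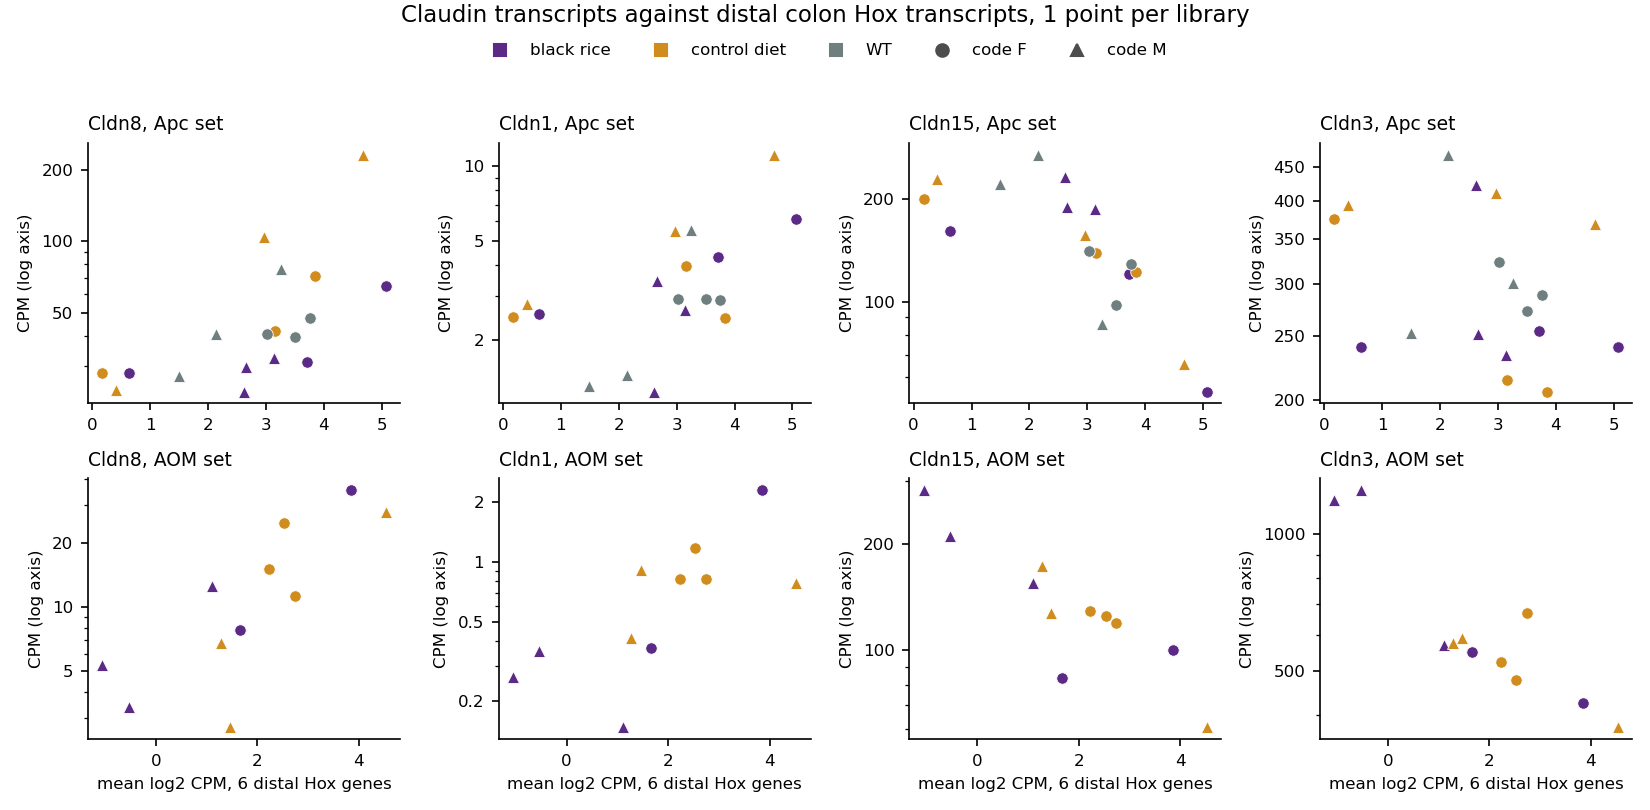
Level of Cldn8, Cldn1, Cldn15 and Cldn3 (CPM, log axis) against the mean log2 CPM of 6 distal Hox genes in 18 Apc libraries (top) and 11 AOM libraries (bottom), coloured by arm and shaped by code. Cldn15 ran downward in both sets (r = -0.758 and -0.888) and Cldn8 upward (r = 0.644 and 0.795). In the AOM panels the 3 libraries lowest in Hox are all black rice M, and the highest is a control M library.

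Epithelial content was also tied to claudins, in the AOM set to the same 4 as the Hox mean. In the Apc set the epithelial mean was related to Cldn7 (r = 0.893, permutation p = 3e-05, adjusted 0.0009; rho = 0.785, p = 0.00014; r = 0.8 without 2 libraries), Cldn3 (r = 0.818, permutation p = 2e-05, adjusted 0.0009; rho = 0.775, p = 0.00018; r = 0.707) and Cldn23 (r = 0.793, permutation p = 8e-05, adjusted 0.0018; rho = 0.715, p = 0.00109; r = 0.639). In the AOM set Cldn7 had r = 0.952 (permutation p = 2e-05, adjusted 0.0009; rho = 0.955, p = 1e-05; r = 0.906 without 2). There Cldn15 had r = 0.853 (permutation p = 0.00088, adjusted 0.0088) and Cldn3 r = 0.753 (permutation p = 0.00478, adjusted 0.0307). Cldn8 had r = -0.828 (permutation p = 0.00187, adjusted 0.0153). Without 2 libraries these values were 0.715, 0.567 and -0.763. The epithelial and Hox means were themselves related, with r = -0.445 in the Apc set and -0.866 in the AOM set. In the AOM set their shares in Cldn3, Cldn7, Cldn8 and Cldn15 therefore cannot be told apart. In the third set Cldn2 was lower where smooth muscle markers were higher (r = -0.941, exact permutation p = 0.000868, adjusted 0.0088; rho = -0.905, exact p = 0.00456; n = 8; r = -0.856 without 2 libraries).

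Among the 10 genes themselves, with group means subtracted and as a description, Cldn3 and Cldn7 had r = 0.909 over 18 Apc libraries, 0.564 over 11 AOM libraries and 0.178 over 8 third-set libraries. Cldn7 and its partner Epcam had 0.959, 0.738 and -0.71. Cldn8 and Cldn15 had -0.846, -0.563 and -0.481, and Cldn1 and Cldn15 had -0.864, 0.014 and -0.315. By the same measure, of all genes tested in the Apc set, those most like Cldn15 were Cgref1 (r = 0.977 in Apc, 0.878 in AOM and 0.704 in the third set), Galnt12 (0.974, 0.566 and 0.396) and B3gnt6 (0.967, 0.818 and 0.892). The genes most like Cldn7 were Gnb1 (0.98, 0.767 and 0.635), Gnb2 (0.969, 0.616 and 0.735) and Actr1a (0.964, 0.849 and 0.763). Among the genes most like Cldn3 were Nosip (0.953, 0.87 and 0.836) and Ctnnd1 (0.952, 0.789 and -0.107). For Tjp1 they were Itch (0.917, 0.77 and 0.874), Tnpo1 (0.916, 0.61 and 0.942) and 5033421B08Rik (0.913, 0.533 and 0.537).

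The nearest genes of the other members follow, several with an r below 0 outside the Apc set. Cldn8 was nearest to Syt8 (0.947, -0.29 and 0.58), 9230116N13Rik (0.945, 0.549 and -0.831) and Ndrg2 (0.939, 0.596 and -0.32), and Cldn1 to Eps15 (0.95, 0.602 and -0.123), Birc3 (0.909, 0.174 and 0.255) and Sdccag8 (0.906, -0.275 and -0.449). Cldn2 was nearest to Wscd1 (0.894, -0.012 and -0.837), Lrrc28 (0.783, 0.036 and -0.77) and Ttc30b (0.769, 0.667 and 0.542). Cldn4 was nearest to Gm5784 (0.889, 0.597 and 0.395), D830050J10Rik (0.847, -0.082 and 0.485) and Creb3l3 (0.847, 0.078 and 0.589). Cldn23 was nearest to Rhof (0.909, 0.554 and 0.507), Neurl3 (0.902, 0.675 and -0.296) and Ccdc71l (0.901, 0.529 and 0.59). Ocln was nearest to Syf2 (0.964, 0.119 and -0.866), Cradd (0.964, -0.093 and -0.778) and Pttg1ip (0.954, 0.474 and -0.426). All of these values are across libraries that share a tissue and a table.

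Other genes of the junction and its surroundings, in 7 lists (other claudins, other membrane proteins, plaque proteins, adherens junction and desmosome, proteases and kinases acting on claudins, epithelial transcription factors, barrier cytokines and receptors), gave 0 calls in each of the 16 comparisons in edgeR. In the diet comparison of the Apc set, 9 of the 96 tested genes in these lists had an unadjusted p under 0.05. Of these 9, 5 were higher and 4 lower with black rice, and the share over all genes was 10.3%. The counts here leave out the 10 members. The smallest p was that of Ildr2, an angulin of tricellular junctions, with a log2 difference of 0.91 (SE 0.26, edgeR adjusted p = 0.304). The count in the AOM set was 4 of 97, 1 higher and 3 lower, beside 3.06% of all genes, led by Tgfb1 at -0.62 (SE 0.25, edgeR adjusted p = 1). The count in the third set was 15 of 96, 4 higher and 11 lower, beside 7.94% of all genes, led by Elf3, an epithelial transcription factor, at -0.43 (SE 0.10, edgeR adjusted p = 0.493). Ildr2 there was 0.86 (SE 0.24, edgeR adjusted p = 0.510), a gene picked for mention after its values were seen. In the AOM set Ildr2 was -0.26 over both codes (SE 0.43, edgeR adjusted p = 1), 0.87 among F (SE 0.63, edgeR adjusted p = 0.985) and -1.40 among M (SE 0.59, edgeR adjusted p = 0.348).

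Of the third set's estimates, 48.7% of all genes were lower with black rice. The lists had 11 of 13 lower for the adherens junction and desmosome, 13 of 17 for epithelial transcription factors, 18 of 28 for plaque proteins, 7 of 9 for barrier cytokines and receptors, 6 of 9 for proteases and kinases, 7 of 13 for other membrane proteins and 4 of 7 for other claudins. The lower epithelial marker sums given above stood in the same libraries. Over the Apc set 50.9% of all genes were lower, with 8 of 13, 11 of 17, 11 of 28, 5 of 9, 3 of 9, 6 of 13 and 6 of 7 in the same order. Over the AOM set it was 53.5%, with 5 of 13, 7 of 17, 11 of 28, 8 of 8, 3 of 9, 5 of 13 and 8 of 9. Among AOM M libraries 24 of 97 listed genes had an unadjusted p under 0.05, 7 higher and 17 lower, beside 13.8% of all genes. Wnk4, a kinase that acts on claudins, had the smallest p, at 0.94 (SE 0.20, edgeR adjusted p = 0.331). Among Apc F libraries it was Mpdz, a multi-PDZ scaffold of the junction, at 0.76 (SE 0.22, edgeR adjusted p = 0.334), and among Apc M libraries Arhgef2 at 0.37 (SE 0.12, edgeR adjusted p = 0.394). Between Apc codes it was Prss8, the membrane protease prostasin, at -0.47 for F minus M (SE 0.10, edgeR adjusted p = 0.0957). In the remaining comparisons the smallest p belonged to Cxadr for the Apc F minus M difference of the diet effects (0.83, edgeR adjusted p = 0.426), Snai1 for control minus WT (0.59, edgeR adjusted p = 0.999) and Cdx1 for black rice minus WT (-0.40, edgeR adjusted p = 0.590). It belonged to Prkci among AOM F (0.59, edgeR adjusted p = 0.985) and for the AOM F minus M difference (1.37, edgeR adjusted p = 0.314), and to Cldn5, a claudin of endothelium, between AOM codes (1.03, edgeR adjusted p = 0.571). Between sets it belonged to Spint2 for Apc minus AOM (-0.75, edgeR adjusted p = 0.666), Cldn10 for Apc minus the third set (-1.40, edgeR adjusted p = 1) and Elf3 for AOM minus the third set (0.70, edgeR adjusted p = 0.913). None of these passed the threshold.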

How the data were processed

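RNA of mouse intestinal tract was extracted with Trizol, captured with oligo(dT) and sequenced on a DNBSEQ platform, per the labels' protocols. The authors deposited 3 tables of raw read counts per gene, 1 column a library, and no column was without a sample (0). Reads were counted over exons with featureCounts 2.0.1 and Ensembl 104 with no strand option, per the file headers of the AOM table and the third table; the Apc table holds no command. FastQC, fastp, HISAT2, SAMtools, Subread and GRCm39 are named in the submitters' processing notes, and their versions are not given in the sources used here.

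Counts were filtered by group and tested in each set with edgeR 4.0.16 (TMM factors, quasi-likelihood test, Benjamini-Hochberg adjustment over all tested genes, threshold 0.05) in R 4.3.3. Alternatives were DESeq2 1.42.0, limma-voom (limma 3.58.1), other size factors and filters, a replicate block, marker covariates and leaving out each library. The steps were tested on simulated data. AOM black rice F replicate 3, with 5.37 M counts, was left out. Exon lengths came from GENCODE M21 and promoters from RefSeq, both on GRCm38. The members and lists were chosen with earlier results of these data known. Members with an unadjusted p under 0.05, listed after values were seen, are given with a fold and a test. For each member the 3 genes with the highest r in the Apc set are named, except 1 gene for Cldn3 that is not reported here, and from the other lists the gene with the smallest p.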

Additional observations from a re-analysis of the deposited data

Results flagged for a closer look

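Cldn1 stood at 52.7 CPM in AOM black rice F replicate 3, a library outside every comparison. AOM control libraries reached at most 1.18 CPM, and the other AOM libraries at most 2.30 CPM. Alb stood at 166020 CPM in that library. Each of the 10 genes was checked in each third-set group of 4 libraries, 20 cases in all. In 0 of them did a library stand apart from the rest by Dixon's criterion, which chance meets in about 1 of 20. Apc and AOM groups had too few libraries to enter, so this check covered none of their libraries.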

How the results depend on the processing

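No member was called in any of the 16 comparisons under any alternative but 1: DESeq2 called 1 member, Cldn8, among Apc M libraries (log2 difference -2.06, adjusted p = 0.0425). Over alternatives, no named value changed its sign, and leaving out each library called 0 members. Counts of all genes called depended on the tool: DESeq2 called 202 genes for the Apc diet where edgeR called 3, 151 against 7 among Apc M, 72 against 3 for black rice minus WT, 528 against 16 between Apc codes and 74 against 8 between AOM codes. Leaving out 1 library gave 1 to 6 genes for the Apc diet, 0 to 11 among Apc M and 10 to 67 between Apc codes. The Apc control M replicate 1 library set the size of the Cldn8 difference among M, which was -1.15 without it. With all 12 AOM libraries, Cldn1 differed by 3.81 between codes. Correlations of same-numbered libraries over 0.1 were found in 6 of 18 Apc pairs (range -0.342 to 0.43), 3 of 5 AOM pairs (-0.087 to 0.385) and 1 of 4 third-set pairs (-0.603 to 0.449). The 3 pairs of Apc control M with WT M were all among these (0.376 to 0.423), but no comparison used here had every pair over 0.1, so the numbers were not taken to pair the libraries. With the replicate block, 0 members were called, and Cldn8 among Apc M was -1.58. Cldn1 rested on few reads in the AOM set, 7 to 107 per library used.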
